A study of Mus musculus with 2 samples.

Results

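The genes described here are 9 that are widely used to recognise monocytes and macrophages: Emr1, Cd68, Lyz2, Mrc1, Msr1, Mpeg1, Pld4, Axl and Mertk. They were found by their symbols in the gene column of a deposited table with 23235 rows, and all 9 had a row. RNA sequencing had been done on mouse bone marrow progenitors held in a transformed state by Hoxa9, a homeobox transcription factor. The comparison asks how expression differs once Hoxa9 has left the nucleus. The EtOH group was cells washed free of the drug 4-hydroxytamoxifen (4OHT) and grown for 72 h in ethanol, its vehicle, and the 4OHT group was cells returned to 100 nM 4OHT for the same 72 h.

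Both groups were marrow of C57B6 mice, depleted of lineage-positive cells, transduced with retroviruses for Hoxa9 fused to ER (MIGR1-HA-Hoxa9-ER) and for its partner factor Meis1 (MIGR1-Flag-Meis1), and cultured in IL3. The sample characteristics write the first construct without ER, the hormone-binding part of the estrogen receptor that keeps the fusion protein in the nucleus only when 4OHT is present. Both transgenes are thus carried by the EtOH and the 4OHT cells alike. The rows of Hoxa9 and Meis1 may hold RNA of the vectors as well as of the mouse genes. The age and sex of the mice are not given in the labels. Each group stood for 2 biological replicates but had 1 FPKM value per gene (fragments scaled to transcript length and to the mapped total). No replicate error can therefore be given for any level below. Replicate spread enters the differences only as far as the test run by the authors took it in.

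Macrophages are the long-lived phagocytes of tissues, and monocytes are their circulating relatives, which grow from myeloid progenitors under the cytokine CSF1 and the transcription factor PU.1. The 9 genes cover different parts of that identity. Emr1 encodes the surface antigen F4/80. Mrc1 and Msr1 encode receptors that bind sugars and modified lipoproteins. Axl and Mertk encode receptor kinases that take part in the uptake of dying cells. Cd68, Lyz2, Mpeg1 and Pld4 act in the lysosome or phagosome. Several are not strict markers: F4/80 is also carried by mouse eosinophils, Lyz2 by neutrophils, and Pld4 by plasmacytoid dendritic cells.

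The 9 genes did not move as a block when 4OHT was withdrawn. Lyz2, Mrc1 and Mpeg1 rose, Emr1, Pld4 and Axl fell, Cd68 and Msr1 did not pass the test, and Mertk was not tested by the authors. "Rose" and "fell" are used here of rows whose q-value, taken from the authors' deposited table, was 0.05 or less. Of the 8 members tested, 6 were called, or 75%, where 22.5% of all 11865 tested rows were called. The 3 that rose stand beside 12% of tested rows that were higher in EtOH, and the 3 that fell beside 10.5% that were lower. The change of a gene is the log2 ratio of FPKM + 1 in EtOH to FPKM + 1 in 4OHT, which is positive when EtOH is higher and understates the change of low genes. The median change of the 9 genes was 0.18, with a range of -1.78 to 2.08. Among the 11022 rows of at least 1 FPKM in either condition the median was -0.06, with quartiles of -0.25 and 0.18. Over the 7 members that pass the same filter, which leaves out Msr1 and Mertk, the median was -0.43, so the sign of the median depends on the filter. That median is the value of Axl, which passes the filter in 4OHT alone, while Mrc1 passes it in EtOH alone. The place of Axl and Mrc1 among the 7 thus depends on the change itself. At least 2-fold apart on this scale were 3 members, Lyz2 and Mrc1 higher and Pld4 lower, where 7.49% of those rows were, 5.11% higher and 2.38% lower.

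**Figure D1:**
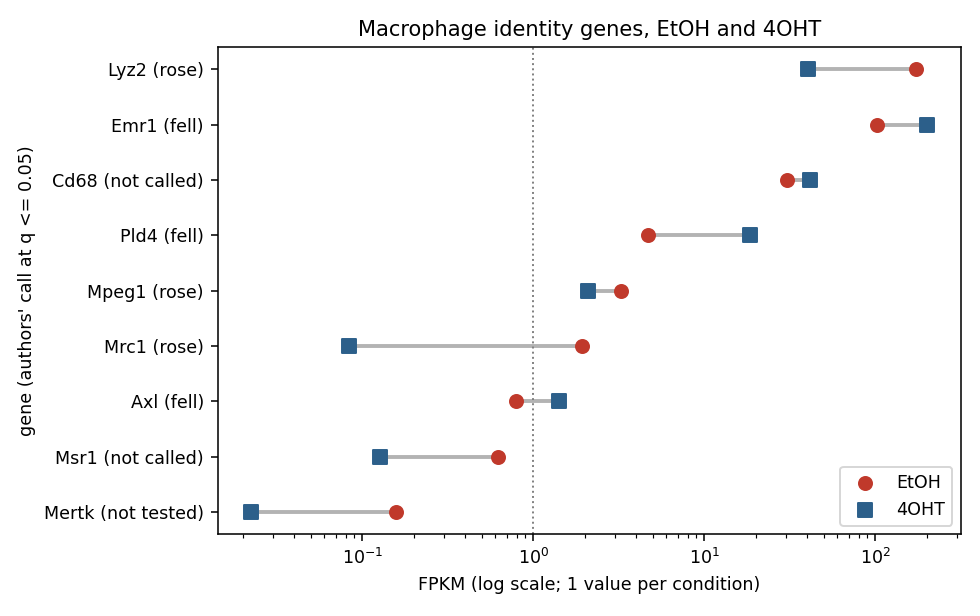
FPKM of the 9 genes in EtOH (circles) and 4OHT (squares) on a log axis, 1 value per condition and no error bars, ordered by the EtOH level; the dotted line marks 1 FPKM. Levels run from under 0.2 FPKM for Mertk to over 100 FPKM for Lyz2 and Emr1 in EtOH, and the EtOH circle lies to the right for 5 genes and to the left for 4.

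The summed level of the 9 genes was 318 FPKM in EtOH and 307 FPKM in 4OHT, but its make-up differed. Lyz2 held 54.8% of that sum in EtOH and 13.2% in 4OHT, and Emr1 held 32.0% in EtOH and 65.8% in 4OHT. In EtOH the order from high to low was Lyz2, Emr1, Cd68, Pld4, Mpeg1, Mrc1, Axl, Msr1 and Mertk. In 4OHT it was Emr1, Cd68, Lyz2, Pld4, Mpeg1, Axl, Msr1, Mrc1 and Mertk. With 1 value per condition, neighbours in these orders cannot be set against any spread, and Cd68 and Lyz2 in 4OHT were as close as 41.8 and 40.5 FPKM.

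The number of fragments behind a level was estimated from the lowest FPKM values. Among single-transcript genes, FPKM times transcript length fell into steps whose first lay at a median of 23.2 in EtOH and 21.6 in 4OHT, and whose next lay 1.96 and 1.97 times as high. If 1 step is 1 fragment, the estimates in fragments below follow from each gene's longest coding transcript in GENCODE M21. They rest on that length and are approximate, and read totals are not given by FPKM.

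Emr1 was the most abundant of the 9 genes in 4OHT and fell after withdrawal. Its product F4/80 is an adhesion receptor of the EGF-TM7 family, named for its EGF repeats and the membrane passes of its receptor part. Emr1, at chromosome 17, 57498109 to 57622952 (mm9), had 102 FPKM in EtOH and 202 FPKM in 4OHT, a log2 change of -0.98 (q = 6.84e-11, authors' deposited table). The level in EtOH was 0.505 times that in 4OHT, yet it was still higher than 96.6% of all rows in that condition. In RNA from whole cultures, fewer cells with Emr1 and less Emr1 RNA per cell cannot be told apart, and the same holds for every change below. No other gene of the family was called. Cd97, a widely expressed leukocyte receptor, had 49.7 FPKM in EtOH and 46.8 FPKM in 4OHT, and was not called (q = 0.798, authors' deposited table). Transcripts of Ddx39 hold 15.6% of its 50-base words. Emr4 was at 0.0602 FPKM in EtOH, was listed at 0 in 4OHT and was not tested.

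Of the scavenger and mannose receptors, Mrc1 had the largest ratio of the 9 genes. Mrc1, the macrophage mannose receptor CD206, lies at chromosome 2, 14151041 to 14253650 (mm9). It had 1.92 FPKM in EtOH and 0.0839 FPKM in 4OHT, which is 22.9 times as much in EtOH, with a q-value listed at 0 in the authors' deposited table. These levels correspond to about 445 fragments in EtOH and about 20.9 in 4OHT. The log2 change with the pseudocount was 1.43, and Mrc1 reached 1 FPKM in EtOH alone. Its locus holds the microRNA gene Mir511, whose row was listed at 0 in both conditions.

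Msr1, the class A scavenger receptor, was also low in both conditions and did not pass. It had 0.622 FPKM in EtOH and 0.127 FPKM in 4OHT, about 97.4 and 21.4 fragments in EtOH and 4OHT. The ratio was 4.90 and the q-value in the authors' deposited table was 0.0805, with an unadjusted p of 0.0207. The locus is at chromosome 8, 40667054 to 40728032 (mm9).

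Across all 22 listed scavenger and mannose receptors, most were barely present. Only 8 reached 1 FPKM in either condition, of which 2 rose, Mrc1 and Olr1, and 0 fell, beside 12% and 10.6% of all rows of that level that rose and fell. Mrc1 and Stab1 reached 1 FPKM in EtOH alone and Scarf2 in 4OHT alone, so that their place in the count depends on the change itself. A count over 8 such rows says little beside those shares. Olr1, the lectin-like receptor for oxidised lipoprotein, had 30.4 FPKM in EtOH and 12.2 FPKM in 4OHT (log2 change 1.25, q-value 7.4e-15 in the authors' deposited table). The other 14 stayed at or under 0.622 FPKM, among them Marco and Cd163, and Scara3, Scara5, Timd4 and Cd5l were listed at 0 in both conditions.

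Axl fell, and its level was low in both conditions. Axl and Mertk are members of the TAM family of receptor tyrosine kinases. Gas6 and Pros1, on the surface of dying cells, are ligands of the family taken as a whole. Axl, at chromosome 7, 26541519 to 26573752 (mm9), had 0.791 FPKM in EtOH and 1.41 FPKM in 4OHT, about 145 fragments in EtOH and about 279.7 in 4OHT. The log2 change was -0.43, the level in 4OHT was 1.79 times that in EtOH, and the q-value in the authors' deposited table was 0.0419. The call did not hold at a q-value of at most 0.01.

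Mertk was the lowest of the 9 genes in both conditions and has no usable test. At chromosome 2, 128524733 to 128627924 (mm9), it had 0.156 FPKM in EtOH and 0.0224 FPKM in 4OHT, about 28.9 and 4.48 fragments in EtOH and 4OHT, and the authors marked it as not tested. Tyro3, the remaining TAM receptor, did not pass, with 1.13 FPKM in EtOH and 1.47 FPKM in 4OHT (q = 0.413, authors' deposited table). The ligands were nearly undetected, Gas6 at 0.0243 FPKM in EtOH and 0.0375 FPKM in 4OHT, and Pros1 at 0.0435 FPKM in EtOH and 0.0578 FPKM in 4OHT. Neither ligand was tested by the authors.

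Other genes for the uptake of dying cells were more abundant, and more of them fell than rose. Of 18 listed, 14 reached 1 FPKM in either condition, with 2 that rose, 5 that fell and 7 that were not called, and a median log2 change of -0.29 where all rows of that level had -0.06. Of those rows 12% rose and 10.6% fell, so the count of rises is near the background. Itgav, the integrin subunit that binds the bridging protein Mfge8, fell to 10.1 FPKM in EtOH, against 42.9 FPKM in 4OHT (log2 change -1.99). Mfge8 itself had 6.90 FPKM in EtOH and 12.7 FPKM in 4OHT (-0.79), and the engulfment adaptor Gulp1 had 0.738 FPKM in EtOH and 5.39 FPKM in 4OHT (-1.88). The q-values of Itgav, Gulp1 and Mfge8 in the authors' deposited table were listed at 0, at 0 and at 0.00666. Gulp1 reached 1 FPKM in 4OHT alone, so that its place in the count depends on the fall itself. Those that rose were Elmo2, with 41.4 FPKM in EtOH and 23.5 FPKM in 4OHT (0.79), and the GTPase Rac2, with 239 FPKM in EtOH and 150.3 FPKM in 4OHT (0.66).

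**Figure D2:**
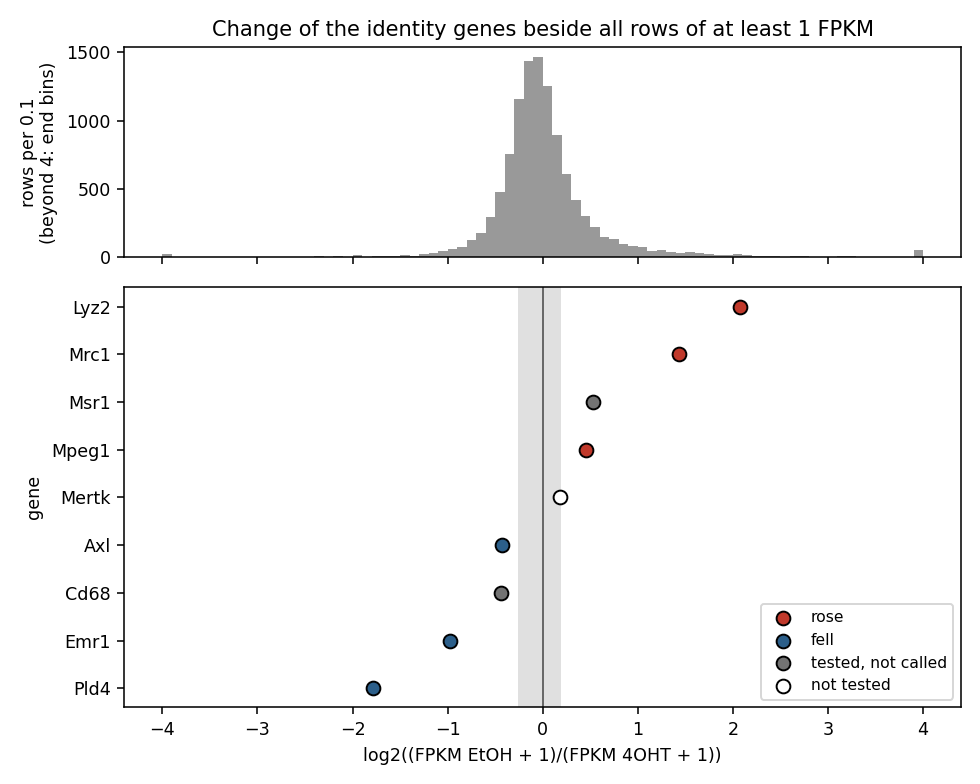
Upper panel: number of rows of at least 1 FPKM per 0.1 of log2 change, with changes beyond 4 put in the end bins. Lower panel: log2 change of each of the 9 genes, coloured by the authors' call at a q-value of at most 0.05; the grey band spans the quartiles of the rows above, -0.25 to 0.18. Lyz2 and Mrc1 lie far to the right of the band, Pld4 and Emr1 far to the left, and Mertk, which was not tested, at the band's edge.

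Among the genes of the lysosome and phagosome, Cd68 did not pass, Lyz2 and Mpeg1 rose and Pld4 fell. Cd68, or macrosialin, is a glycoprotein of the lysosomal membrane. At chromosome 11, 69477873 to 69479564 (mm9), it had 30.6 FPKM in EtOH and 41.8 FPKM in 4OHT, a log2 change of -0.44. Its q-value in the authors' deposited table was 0.0573 and its unadjusted p 0.0134. The widely expressed relatives Lamp1 and Lamp2 did not pass either. Lamp1 had 222 FPKM in EtOH and 232 FPKM in 4OHT, and Lamp2 had 120.2 FPKM in EtOH and 90.6 FPKM in 4OHT. Transcripts of Grtp1 hold 7.11% of the words of Lamp1. Lamp3 and Lamp5, which the table lists as 6330527O06Rik, were at or under 0.0184 FPKM.

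Lyz2 had the largest log2 change of the 9 genes with the pseudocount of 1, while with one of 0.1 Mrc1 had 3.46 and Lyz2 had 2.10. It encodes lysozyme M, which cleaves bacterial cell walls and is made by macrophages, monocytes and neutrophils. Lyz2, at chromosome 10, 116714597 to 116719328 (mm9), had 174 FPKM in EtOH and 40.5 FPKM in 4OHT, 4.30 times as much in EtOH (log2 change 2.08), with a q-value listed at 0 in the authors' deposited table. Of all rows of at least 1 FPKM, 1.52% had a larger change. Lyz1, the neighbouring lysozyme gene that is known for its expression in Paneth cells, rose as well, with 9.004 FPKM in EtOH and 2.02 FPKM in 4OHT (log2 change 1.73, q-value 3.96e-12 in the authors' deposited table).

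Both lysozyme genes are near copies, which limits how far their levels can be separated. Their coding sequences of 447 bases in GENCODE M21 differ at 22 bases, an identity of 95.1%. Of the 50-base words of Lyz2, 15.4% also occur in Lyz1, and of those of Lyz1, 16.1% occur in Lyz2. The level of Lyz1 in particular is therefore uncertain, since how the authors shared such reads is not known here. The first 120 coding bases are shown because they hold 11 of the 22 differences, which are in capitals.
Lyz2: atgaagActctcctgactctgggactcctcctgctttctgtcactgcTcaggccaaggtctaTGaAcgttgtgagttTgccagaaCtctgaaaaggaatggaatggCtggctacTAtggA
Lyz1: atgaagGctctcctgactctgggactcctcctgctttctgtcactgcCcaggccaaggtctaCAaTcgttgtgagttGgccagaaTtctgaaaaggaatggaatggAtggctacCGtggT

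Mpeg1 rose modestly. It encodes perforin-2, a pore-forming protein that attacks bacteria inside phagocytes. At chromosome 19, 12535269 to 12539775 (mm9), it had 3.26 FPKM in EtOH and 2.10 FPKM in 4OHT, about 608 and 422 fragments in EtOH and 4OHT. The ratio was 1.55 and the q-value in the authors' deposited table was 0.0302, and the call did not hold at a q-value of at most 0.01. Its relatives of the perforin and complement family were low: Prf1 had 0.411 FPKM in EtOH and 0.386 FPKM in 4OHT, and C6, C8a and C8b were listed at 0 in both conditions. C7, named after its values were seen, rose under 1 FPKM, with 0.843 FPKM in EtOH and 0.0606 FPKM in 4OHT.

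Pld4 had the largest fall of the 9 genes. It encodes an exonuclease of endolysosomes that trims single-stranded nucleic acids, despite its name as a phospholipase D. At chromosome 12, 113998866 to 114007197 (mm9), it had 4.70 FPKM in EtOH and 18.6 FPKM in 4OHT, so the level in 4OHT was 3.96 times that in EtOH. The log2 change was -1.78 with a q-value listed at 0 in the authors' deposited table, and 0.907% of rows of at least 1 FPKM had a lower change. The family did not move together. Pld3, a lysosomal exonuclease of the same group, rose, with 65.3 FPKM in EtOH and 44.4 FPKM in 4OHT (log2 change 0.55). Pld1, a phospholipase D of membrane traffic, also rose, with 5.16 FPKM in EtOH and 2.73 FPKM in 4OHT (0.72). Pld3 and Pld1 had q-values of 0.00145 and 4.94e-05 (authors' deposited table).

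Promoters were read for 7 of the 9 genes in the RefSeq table on build GRCm38.p6, which is not the build of the deposited table. Emr1 and Msr1 had no entry. Each window runs from 250 bases before to 50 bases after the start of the gene. The purine-rich core of PU.1 sites, searched as GAGGAA on both strands (TTCCTC on the other), was present in 4 of the 7 windows, those of Cd68, Mrc1, Pld4 and Axl, and in 28.3% of all 32851 windows. A Hox and Pbx motif, TGATTNAT on both strands, was present in 0 of the 7 and in 3.22% of all. The windows of Mrc1 (chr2:14229164-14229463, + strand) and Pld4 (chr12:112760405-112760704, + strand) are shown as those of the members with the largest ratio in each direction, with the PU.1 core in capitals. Mrc1 holds 3 matches and Pld4 holds 1, so a member that rose and one that fell both held the core.
Mrc1: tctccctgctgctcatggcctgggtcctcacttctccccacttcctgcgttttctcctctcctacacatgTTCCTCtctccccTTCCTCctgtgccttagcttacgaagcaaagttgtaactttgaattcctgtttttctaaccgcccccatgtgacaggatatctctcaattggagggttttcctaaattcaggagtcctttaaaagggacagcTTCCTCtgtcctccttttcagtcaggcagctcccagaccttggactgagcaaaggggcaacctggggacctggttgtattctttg
Pld4: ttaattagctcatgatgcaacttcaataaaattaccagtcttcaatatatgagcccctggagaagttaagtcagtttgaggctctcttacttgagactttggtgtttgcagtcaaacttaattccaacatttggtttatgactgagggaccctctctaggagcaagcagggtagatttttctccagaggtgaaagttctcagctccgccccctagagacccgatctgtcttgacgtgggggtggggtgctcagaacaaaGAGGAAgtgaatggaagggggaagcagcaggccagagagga

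The transcription factors and cytokine receptors of the lineage mostly rose or were not called. Of 22 listed macrophage transcription factors, 16 reached 1 FPKM, with 6 that rose, 2 that fell and 8 that were not called, and a median log2 change of 0.29, beside 12% and 10.6% of all rows of that level that rose and fell. Sfpi1, which encodes PU.1, had 167 FPKM in EtOH and 77.5 FPKM in 4OHT (1.10), the early response factor Egr1 had 58.8 FPKM in EtOH and 23.0 FPKM in 4OHT (1.32), and Tfec, a factor of the Mitf family, had 79.5 FPKM in EtOH and 39.7 FPKM in 4OHT (0.98). The falls were Irf8, required for monocyte development, with 0.751 FPKM in EtOH and 4.09 FPKM in 4OHT (-1.54), and Id3, with 1.14 FPKM in EtOH and 2.84 FPKM in 4OHT (-0.84). The q-values in the authors' deposited table were at most 0.0101 for these 5 genes. The share of falls is near the background. Egr2, another that rose, reached 1 FPKM in EtOH alone, and Irf8 did so in 4OHT alone. Their place in the count thus depends on the change itself.

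All 6 genes of the CSF1 and GM-CSF axis that reached 1 FPKM rose, where 12% of all rows of that level did, and Il34 was listed at 0 in both conditions. Csf1r, the CSF1 receptor, had 2.10 FPKM in EtOH and 0.347 FPKM in 4OHT (log2 change 1.20), and transcripts of Hmgxb3 hold 16.4% of its words. Its ligand Csf1 had 20.02 FPKM in EtOH and 6.90 FPKM in 4OHT (1.41). The GM-CSF receptor subunit Csf2ra had 57.8 FPKM in EtOH and 22.5 FPKM in 4OHT (1.32). The shared subunit gene Csf2rb had 229.9 FPKM in EtOH and 167 FPKM in 4OHT (0.45), and the related Csf2rb2 had 158 FPKM in EtOH and 66.9 FPKM in 4OHT (1.23), with 17.1% and 19.3% of the words of Csf2rb and Csf2rb2 shared with other genes. Csf2, the GM-CSF gene, had 1.66 FPKM in EtOH and 0.0448 FPKM in 4OHT (1.35). Csf1r and Csf2 reached 1 FPKM in EtOH alone, so that their presence in the count depends on the rise itself.

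**Figure D3:**
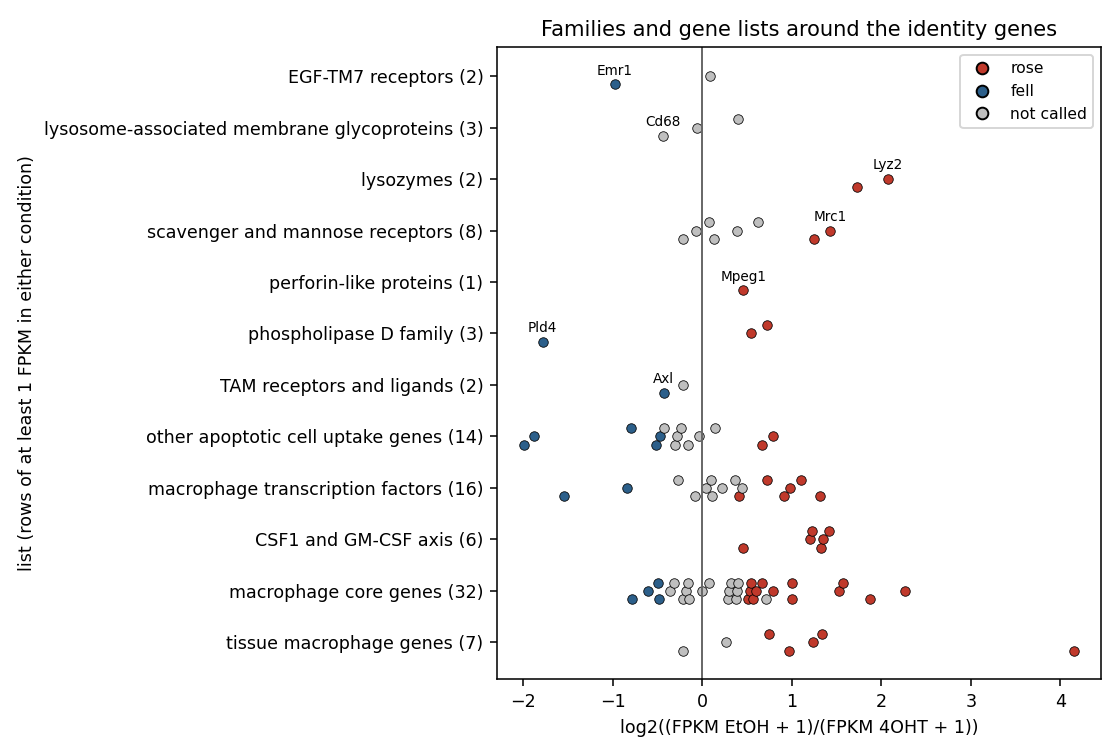
Log2 change of genes that reached 1 FPKM in EtOH or in 4OHT, in each of 12 families or lists, with their number in brackets; colours give the authors' call at a q-value of at most 0.05 and the identity genes are named. The lysozymes and the CSF1 and GM-CSF axis lie wholly to the right of 0, Pld4 lies apart from its family, and the uptake genes and macrophage core genes spread to both sides.

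A wider set of genes shared by tissue macrophages also split, with more rises than falls. This list of macrophage core genes was written from knowledge of published work and had 38 entries, of which 37 were matched. Of the 32 that reached 1 FPKM, 13 rose, 4 fell and 15 were not called, with a median log2 change of 0.38. Of all rows of that level 12% rose and 10.6% fell, so the share of falls is near the background. The largest rises were Sqrdl, a mitochondrial sulfide-oxidising enzyme, with 24.3 FPKM in EtOH and 4.29 FPKM in 4OHT (2.26), Fgd4, an exchange factor, with 33.4 FPKM in EtOH and 8.40 FPKM in 4OHT (1.87), and Csf3r, with 32.4 FPKM in EtOH and 10.3 FPKM in 4OHT (1.57). Csf3r, the G-CSF receptor, is also in the neutrophil list. The falls included Mr1, which presents vitamin metabolites to T cells, with 4.38 FPKM in EtOH and 8.26 FPKM in 4OHT (-0.78), Pla2g4a, a phospholipase A, with 24.1 FPKM in EtOH and 37.1 FPKM in 4OHT (-0.60), and the lysosomal protease gene Ctsl, with 16.8 FPKM in EtOH and 24.2 FPKM in 4OHT (-0.50).

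Most genes of specialised tissue macrophages lay at or near 0. Of 20 listed, 13 stayed at or under 0.320 FPKM in both conditions, and Folr2, Timd4, Clec4f and Adamdec1 were listed at 0 in both. Of the 7 that reached 1 FPKM, 5 rose and 0 fell, beside 12% and 10.6% of all rows of that level. Slc40a1, the iron exporter ferroportin, had 26.9 FPKM in EtOH and 0.572 FPKM in 4OHT (4.15), Tmem119, a gene also used to mark microglia, had 12.2 FPKM in EtOH and 4.23 FPKM in 4OHT (1.33), and the haem oxygenase gene Hmox1 had 67.7 FPKM in EtOH and 28.2 FPKM in 4OHT (1.23). Slc40a1, Trem2 and C1qb reached 1 FPKM in EtOH alone.

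Markers of granulocytes and mast cells rose in the same comparison, in which 12% of all rows of at least 1 FPKM rose and 10.6% fell. Of 14 neutrophil markers, 13 reached 1 FPKM and all 13 rose, and the list summed to 16445 FPKM in EtOH and 168 FPKM in 4OHT, with S100a8 and S100a9 holding most of the sum in EtOH and Lcn2, at 73.7 FPKM, the largest part in 4OHT. Of those 13, 5 reached 1 FPKM in EtOH alone, so that their place in the count depends on the rise itself. Of 10 eosinophil markers, 9 reached 1 FPKM and 9 rose, with sums of 5985 FPKM in EtOH and 159 FPKM in 4OHT, led by Prg2 and Ccl6 in both, and 4 of the 9 reached 1 FPKM in EtOH alone. Of 14 basophil and mast cell markers, 12 reached 1 FPKM and 11 rose, with sums of 5419 FPKM in EtOH and 1403 FPKM in 4OHT, led by Mcpt8 and Prss34 in EtOH and by Cpa3 and Prss34 in 4OHT. Fcer1a, of the basophil and mast cell list, also reached 1 FPKM in EtOH alone. None of the markers in these lists was at 0 in both conditions. The part of these cells in the changes of Lyz2, Emr1 and the other shared genes was not tested.

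The monocyte list had 16 markers, of which 10 reached 1 FPKM, with 7 that rose and 0 that fell. Among all rows of that level, 12% rose and 10.6% fell. Of the 7, Csf1r, Fn1 and Klra2 reached 1 FPKM in EtOH alone. Its sum was 3598 FPKM in EtOH and 3182 FPKM in 4OHT, almost wholly Ly6c2, which was not called, at 3463 FPKM in EtOH and 3104 FPKM in 4OHT. Cx3cr1, a receptor of patrolling monocytes, was at or under 0.0348 FPKM. Among markers of plasmacytoid dendritic cells, which also express Pld4, 0 of the 5 that reached 1 FPKM were called. With 5 rows, this count says little beside the shares given above. The 13 markers summed to 68.0 FPKM in EtOH and 76.1 FPKM in 4OHT. The most abundant were Bst2, an interferon-induced surface protein, with 54.3 FPKM in EtOH and 61.3 FPKM in 4OHT, and the transcription factor gene Runx2, with 8.92 FPKM in EtOH and 10.9 FPKM in 4OHT, and neither is restricted to these cells. Of the markers near 0, Siglech, Ccr9, Pacsin1, Ly6d and Klk1 were at or under 0.00974 FPKM. Of 14 conventional dendritic cell markers, 3 reached 1 FPKM, of which 1 rose, Cd74, with 5.12 FPKM in EtOH and 0.690 FPKM in 4OHT, and 1 fell, Flt3. Cd74 reached 1 FPKM in EtOH alone and Flt3 in 4OHT alone, so that their place in the count depends on the change itself. A count over 3 such rows says little beside the shares given above. Itgax rose under 1 FPKM, with 0.522 FPKM in EtOH and 0.105 FPKM in 4OHT. The list summed to 31.05 FPKM in EtOH and 37.7 FPKM in 4OHT, with H2-Ab1 at 23.2 FPKM in EtOH and 21.7 FPKM in 4OHT, and Flt3, also a progenitor gene, at 0.239 FPKM in EtOH and 14.5 FPKM in 4OHT. Lymphoid markers summed to 3.73 FPKM in EtOH and 1.25 FPKM in 4OHT, led by Cd79b and Il7r. Erythroid and megakaryocyte markers summed to 108 FPKM in EtOH and 130.2 FPKM in 4OHT, led by Itga2b and by Tfr2, listed as Trfr2.

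**Figure D4:**
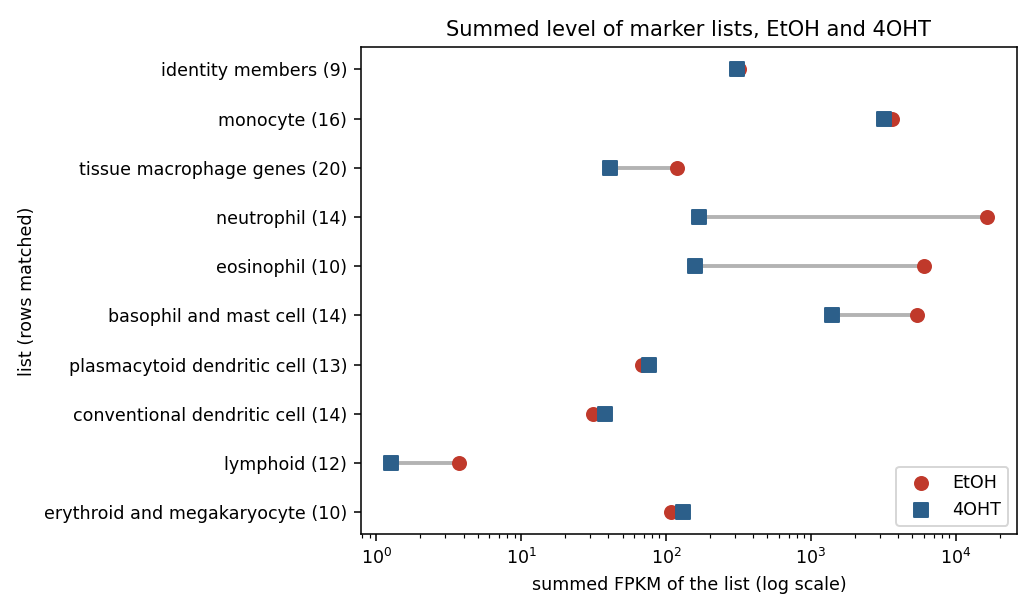
Summed FPKM of the 9 identity genes (top row) and of marker lists in EtOH (circles) and 4OHT (squares) on a log axis, with the number of matched rows in brackets and no error bars. The sum of the identity genes lies at 318 FPKM in EtOH and 307 FPKM in 4OHT, while those of neutrophil and eosinophil markers lie far apart.

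For the series as a whole, Hoxa9 RNA stood at 892 FPKM in EtOH and 476 FPKM in 4OHT and Meis1 RNA at 418 FPKM in EtOH and 242 FPKM in 4OHT. These values say nothing of where the fusion protein is, and do not tell RNA of the vectors from that of the mouse genes. The progenitor antigen gene Cd34 had 45.8 FPKM in EtOH and 124 FPKM in 4OHT, Kit 10.1 FPKM in EtOH and 7.39 FPKM in 4OHT, and the pan-leukocyte gene Ptprc 64.5 FPKM in EtOH and 33.9 FPKM in 4OHT. The FPKM values summed to 591496 in EtOH and 544802 in 4OHT.

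Other genes with levels like those of the called members were sought over the 2 conditions, by the distance between points of log2(FPKM + 1). Among called rows outside the 9 genes, the one nearest to Emr1 was Atp6v0d1, a subunit of the lysosomal proton pump, with 103.5 FPKM in EtOH and 193 FPKM in 4OHT at a distance of 0.066. For Lyz2 it was Lgals3, which encodes galectin-3 of macrophages, with 179 FPKM in EtOH and 47.3 FPKM in 4OHT at a distance of 0.22. For Pld4 it was Tmem173, the gene of the DNA-sensing adaptor STING, with 5.52 FPKM in EtOH and 16.7 FPKM in 4OHT at a distance of 0.24. Mrc1, Mpeg1 and Axl lay nearest to Hrc, Arl15 and Zfp941, at distances of 0.018, 0.032 and 0.0077. A pair of values per gene fixes a level and a ratio only.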

How the data were processed

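The authors deposited 1 table with an FPKM value per gene and condition, and a p-value, a q-value and a test status for the comparison of EtOH with 4OHT, per the file headers. Cuffdiff 2.0.2, Bowtie2 2.0.0.7, CASAVA 1.8.2 and build mm9 are named in the submitters' processing notes. The gene annotation, strand setting, library scaling and handling of replicates were not given in the sources used here. Adjusting the deposited p-values of the tested rows by the method of Benjamini and Hochberg gave back the deposited q-values to within 1.7e-06. FPKM is relative to the whole library, so rises of abundant RNAs lower other values.

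From the FPKM values, log2 changes with a pseudocount of 1, sums, counts and medians were computed with Python 3.11.15, numpy 2.4.6 and pandas 2.3.3. No test of this work was possible, so calls are the authors'. Of these steps, the log2 change with the 2-fold rule was tested on simulated data, together with the adjustment of p-values. The planted changes were larger than 2-fold. Full recovery of planted rises was asked only above the low levels of Mrc1, Msr1, Mpeg1, Axl and Mertk. The authors' calls were not part of that simulation. The 9 members, 12 family or pathway lists and 8 marker lists (260 entries, 257 matched, 5 of all entries by an older symbol) were chosen with earlier results of these data known. Named were the members, every gene of at least 1 FPKM in lists of up to 7 genes, up to 3 called rises and 3 called falls of longer lists, the 2 highest markers of each marker list and the nearest called gene of each called member. Any other list gene was named with its values in view. A marker that this rule picked is not reported here. Fragments per level came from single-transcript genes of 1000 to 4000 bases, with the first step sought between 15 and 30. Deposited starts were taken as counted from 0 and raised by 1, since 7152 locus lengths then equal RefSeq gene lengths, against 451 otherwise. Pseudocounts, scalings, filters and call rules were varied.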

Additional observations from a re-analysis of the deposited data

How the results depend on the processing

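Pseudocounts of 0.1 and 5 can alter the size of a change but not its direction. With the FPKM sums of EtOH and 4OHT made equal, EtOH shifted by -0.12 in log2. With a median log2 ratio of 0 it shifted by 0.066. Each of the 6 called members kept its direction under these scalings, as it had to. Their smallest change was -0.43, for Axl, which is larger in size than either shift. The median change of the 9 genes was 0.18 as reported, 0.61 with a pseudocount of 0.1, 0.038 with 5, 0.16 with the FPKM sum and 0.19 with the median scaling. The number of members at least 2-fold apart was 3, and 5 with a pseudocount of 0.1, where Msr1 and Mertk joined; Mrc1 dropped out with a pseudocount of 5 and Emr1 joined under the FPKM sum. The calls numbered 6, and 4 at a q-value of at most 0.01, without Mpeg1 and Axl, where 16.1% of tested rows were called. They numbered 6 with a ratio of at least 1.5 added (17.1% of tested rows) or with adjustment over rows of at least 1 FPKM (21%), and 8 at an unadjusted p of at most 0.05 (31.5%), which adds Cd68 and Msr1. The ratio rule could drop no called member, since the ratio nearest to 1 was that of Mpeg1, at 1.55. Between families, the median of the EGF-TM7 receptors turned to 0.084 without the filter on low values, which adds Emr4, and that of the lysosome-associated membrane glycoproteins turned to 0.0019 with the median scaling. Without that filter the median of the tissue macrophage genes went from 0.96 to 0.021. At 5 FPKM in place of 1 FPKM, falls of transcription factors went from 2 to 0 and of TAM genes from 1 to 0. Rises of tissue macrophage genes went from 5 to 3, of scavenger and mannose receptors from 2 to 1 and of perforin-like genes from 1 to 0. Over the family and pathway lists together, rises went from 38 to 31 and falls from 14 to 11. No paired analysis was possible because each condition has 1 deposited value, and for the same reason no replicate could be left out. Depth limits Mertk, Msr1, Mrc1 and Axl most.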
